A study of Mus musculus with 38 samples.

Results

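The T cell receptor V gene segments are the 144 of 78202 genes in the gene tables whose biotype is TR_V_gene. Of these, 110 are Trav segments, 5 are Trdv, 22 are Trbv and 7 are Trgv. The 10 segments with a joined symbol such as Trav13-4-dv7, which can be used by either the alpha or the delta chain, were counted with Trav. The rule used the annotation alone and no measured value.

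A T cell receptor is assembled in developing T cells by V(D)J recombination, in which the RAG enzymes cut beside V, D and J segments at recombination signals and the cut ends are joined into 1 exon. Trav and Trbv segments supply the variable ends of the alpha and beta chains of most T cells, and Trgv and Trdv those of the gamma and delta chains. Transcription of the segments was not analysed here. The nuclear lamina lies under the inner nuclear membrane, and chromatin held against it is mostly repressed; LAP2B is a membrane protein of that layer, lamin B1 (LMNB1) is one of its filaments, and LBR is a second membrane protein that binds heterochromatin.

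The study used CUT&RUN, in which an antibody directs a nuclease to cut and release the DNA near its target, to follow which DNA lies near the lamina in mouse embryonic stem (mES) cells that lack lamins, LBR or both. Naive mES cells were grown in 2i and LIF, and primed cells were epiblast-like cells (EpiLCs) made from them. LAP2B was profiled at both stages in wildtype (WT) cells, LBR knockout (LBRKO) cells, lamin triple knockout (TKO) cells, which lack lamins A/C, B1 and B2, and lamins and LBR quadruple knockout (QKO) cells. LMNB1 and an IGG negative control antibody were profiled at both stages in WT cells, and every one of these 12 groups held 3 libraries, 36 in all.

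WT and TKO were separate lines from littermates, LBRKO was made from WT, and QKO is 1 clone made from TKO, so line and genotype cannot be told apart. By the study's karyotypes, some of the WT cells carried an extra chromosome 6, where Trbv lies, and the TKO line an extra chromosome 8, where no V segment lies. The labels name no separate clones or cultures behind the replicates, so p-values measure the spread between libraries, which may be technical. A DNA profile gives no expression, so the labelled cell type could not be checked against its markers. The study did not use LAP2B as a measure of lamina contact in EpiLCs, because part of its signal there lay away from LMNB1.

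The deposited value of a gene is its spike-in scaled signal summed over the 1 kb bins it touches. All segments are short: 77 members touch 1 bin, 65 touch 2 and 2 touch 3. Of the 138 members not listed at 0 in every library, the median member held 23.75 reads per library (range over members 10 to 64). Summed over all genes, libraries gave 12028659 to 45689196 reads, with a read counted in every bin of every gene it touches. Levels are given below as density, the value per bin divided by that of the library's median gene per bin, so that a density of 1 is the library's typical gene. Values of single members across libraries are given as relative values, the value divided by that of the median gene, and the tests ran on log2 of the relative value plus 0.1, which understates the change of low members. A relative value under 0.1 rests on few reads. The filter on low values used the mean deposited value over all libraries, and 131 of the 144 members passed it (98 Trav, 4 Trdv, 22 Trbv and 7 Trgv).

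The signals that RAG recognises identify the segments at the level of DNA, and the 39 bases that follow the annotated end of a V segment are shown for 11 members, chosen among those with the highest or lowest naive WT density of a locus and the largest falls described below. A V segment's signal has a heptamer, a spacer of 23 bases and a nonamer. The first 7 and the last 9 bases are in capitals and the 23 between are in lower case, and each sequence runs 5′ to 3′ on the strand of its gene in GRCm39. The capitals mark these places by count and not a match, and in Trbv12-2 and Trbv23 the last 9 bases differ from the usual nonamer ACAAAAACC at 5 places.
Trav1: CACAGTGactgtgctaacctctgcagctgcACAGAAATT
Trav13n-1: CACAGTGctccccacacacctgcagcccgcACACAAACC
Trav6-5: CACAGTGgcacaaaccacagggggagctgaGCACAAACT
Trdv2-2: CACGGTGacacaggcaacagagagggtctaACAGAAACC
Trdv4: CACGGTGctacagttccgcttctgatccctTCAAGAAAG
Trbv12-2: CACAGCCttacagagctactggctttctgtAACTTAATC
Trbv17: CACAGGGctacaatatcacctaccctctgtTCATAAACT
Trbv23: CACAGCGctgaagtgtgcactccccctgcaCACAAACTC
Trbv31: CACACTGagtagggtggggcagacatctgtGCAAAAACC
Trgv1: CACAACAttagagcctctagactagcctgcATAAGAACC
Trgv4: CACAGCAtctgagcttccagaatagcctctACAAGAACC

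These stretches lie just past the 3′ end of the V exon, for example at chr14:52666334-52666372 on the plus strand for Trav1 and chr6:41096299-41096337 for Trbv12-2. That of Trbv31, 1 of only 3 members on the minus strand (with Trdv5 and Trgv2), is at chr6:41534588-41534626. The full heptamer CACAGTG, read on the gene's strand directly after its end, stood there in 103 of 144 members (71.5%) against 356 of all 78131 genes with coordinates (0.456%). The loci differed in it: 93 of 110 Trav, 2 of 5 Trdv, 7 of 22 Trbv and 1 of 7 Trgv members held the full heptamer. Its first 3 bases, CAC, opened the stretch in 140 of 144 members (97.2%) and in 1.94% of all genes. Among tested Trav members, the median LAP2B change in naive QKO cells described below was -0.95 both for the 82 with the full heptamer and for the 16 without it, on the log2 scale.

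In WT naive mES cells the V segments lay above the typical gene in both lamina profiles. LAP2B density was above 1 in 128 of the 138 members not listed at 0, with a median member of 1.73, against 53.0% of all genes. LMNB1 density was above 1 in 129 of 138, with a median of 1.78. The IGG control was above 1 in 77 of 138 members, with a median of 1.04, close to the 53.5% of all genes that were.

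By locus, mean LAP2B density over members in the naive WT libraries 1, 2 and 3 was 1.90, 2.37 and 1.62 for Trbv. For Trgv it was 1.70, 2.11 and 1.62, and for Trav 1.77, 1.84 and 1.69. For Trdv it was 1.46, 1.40 and 1.05. Trbv (1.96 ± 0.382, SD, n = 3), Trgv (1.81 ± 0.261) and Trav (1.77 ± 0.0747) therefore overlapped and did not differ beyond their spread, and Trdv (1.30 ± 0.219) was the lowest locus in every library. LMNB1 gave means of 2.05 for Trbv, 1.91 for Trav, 1.70 for Trgv and 1.19 for Trdv. IGG was between 0.985 and 1.08 for all 4 loci.

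**Figure D1:**
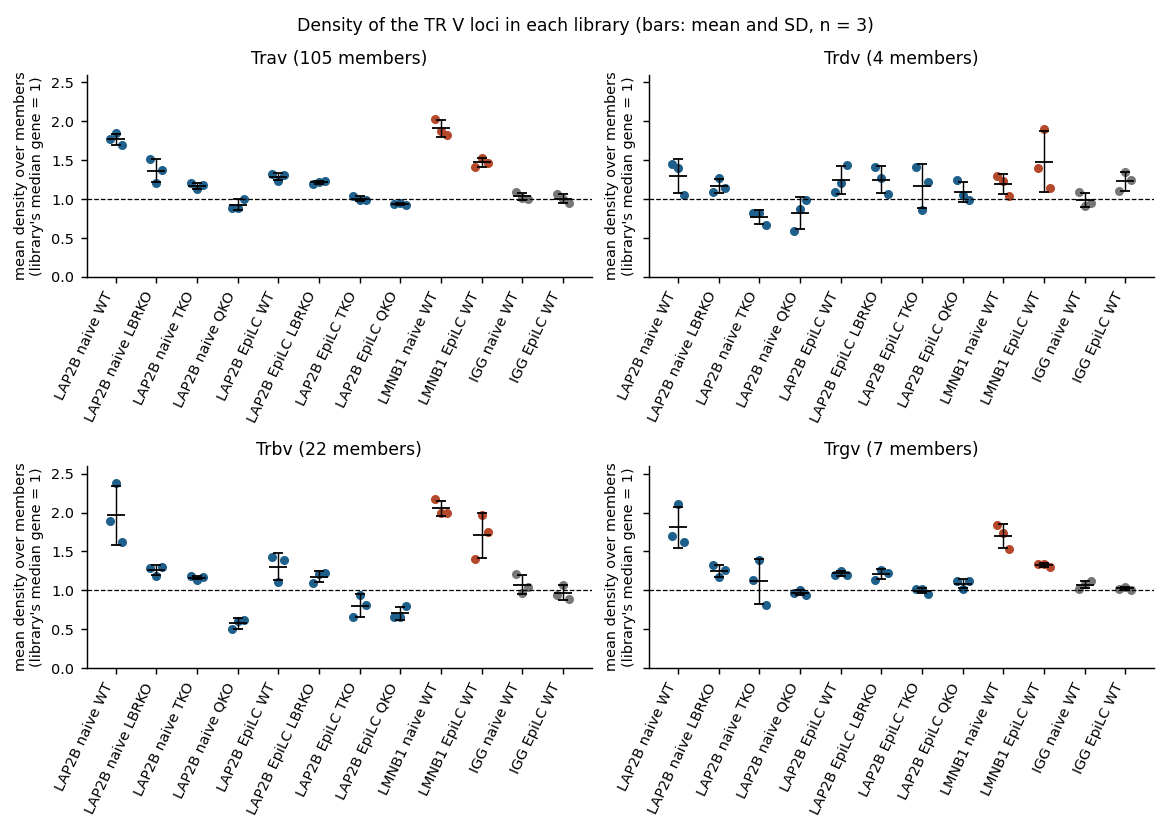
Mean density over the members of each locus (y axis, library's median gene = 1, dashed line) in each of the 12 groups (x axis); points are libraries, bars the mean and SD of 3. In naive WT cells the Trav, Trbv and Trgv means lie between 1.77 and 1.96 for LAP2B, while the naive QKO means lie at or below 0.971 and are lowest for Trbv.

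Single members ranged widely. The highest naive WT LAP2B densities were 3.69 ± 0.277 (SD, n = 3) for Trav7-1 and 3.57 ± 0.5 for Trbv12-2. Trgv1 led its locus at 2.28 and Trdv2-2 its own at 1.57. The lowest members were Trav6-5 at 0.713, Trbv23 at 1.14, Trdv4 at 1.03 and Trgv4 at 1.44. These highest and lowest members were picked by the naive WT LAP2B libraries. The same libraries enter their changes against WT given below, so those changes are not independent of the pick. Trav7-1 was also high with LMNB1 (5.04 ± 0.123) but stood at 1.61 ± 0.651 with IGG. Across the 138 members, naive LMNB1 and LAP2B densities correlated with Pearson's r = 0.738 and Spearman's rho = 0.787, and IGG and LAP2B with 0.458 and 0.463. Members share libraries, read depth and, in part, near-identical sequence.

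Within the long Trav and Trdv array, mean naive WT LAP2B density fell along the locus. The array spans chr14:52665385-54386751 (1721 kb), and in windows of 300 kb from its first member, Trav1, naive WT LAP2B density was 2.00, 1.91, 1.79, 1.70, 1.60 and 1.18, over 6, 26, 28, 26, 19 and 4 members. The SDs of these LAP2B densities over libraries were 0.23, 0.15, 0.07, 0.06, 0.14 and 0.23. Naive WT LMNB1 was at 2.53, 1.95, 1.81, 2.02, 1.65 and 1.14, so it rose in the fourth window. IGG was at 1.22, 1.05, 0.945, 1.07, 1.05 and 0.968, highest in the first. LAP2B in naive QKO cells was at 0.667, 0.872, 0.916, 0.943, 1.07 and 0.798 in the same windows. Mean LAP2B density of WT and QKO therefore differed most at the Trav1 end and least at the Trdv end.

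In naive QKO cells LAP2B was lower than in WT over most V segments. In QKO against WT, 98 of 131 tested members fell by limma at an adjusted p under 0.05, against 42.5% of all genes tested. The log2 change was below 0 in 130 of 131 members, although the median over all genes was below 0 too. By edgeR 90 were called lower, against 38.8% of all genes. The median member changed by -0.99 on the log2 scale, against -0.23 over all genes and -0.32 over the 26497 genes that touch 1 to 3 bins, of which 39.6% fell. By locus, 70 of 98 Trav members fell (median -0.95), 2 of 4 Trdv (-0.64), 21 of 22 Trbv (-1.35) and 5 of 7 Trgv (-0.90). The 3 QKO libraries lay wholly below the 3 WT libraries in 95 of 131 members, against 42.1% of all genes.

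On the deposited spike-in scale, on which the median over all genes was itself at -1.24 after the same floor, 130 of 131 members fell in naive QKO, against 65.5% of all genes. Mean deposited value per bin in QKO was 0.180 of WT for Trav, 0.100 for Trbv, 0.216 for Trdv and 0.182 for Trgv. As density, which sets the overall loss aside, these ratios were 0.523, 0.295, 0.631 and 0.536, and the QKO and WT libraries did not overlap in any of the 4 loci. The same ratios of relative values not divided by bins were lower, at 0.431 for Trav, 0.234 for Trbv, 0.457 for Trdv and 0.447 for Trgv; the 2 measures differ by the number of bins and by the ratio of the median gene to the median gene per bin, which was 6.03 to 6.43 in QKO libraries and 5.11 to 5.20 in WT ones.

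Trbv fell further than Trav within the same libraries. Mean Trbv density divided by mean Trav density was 0.957 to 1.29 in the naive WT libraries, 0.855 to 0.979 in LBRKO and 0.981 to 1.01 in TKO. In the 3 QKO libraries it was 0.567 to 0.691, below every library of the other naive genotypes. LMNB1 in naive WT gave 1.06 to 1.1. The median gene of chromosome 6, which carries Trbv, changed by -0.66 in naive QKO, against -0.47 on chromosome 14 and -0.37 on chromosome 13. With each library centred on the median gene of the chromosome, 19 of 22 Trbv members (median -1.04) and 5 of 7 Trgv members were called lower, against 40.4% of all genes. Of Trav members 46 of 98 were called, fewer than on the main scale and nearer the share of all genes. Their median was -0.64, against -0.17 over all genes. Of Trdv members 1 of 4 was called, below that share. The size of the Trav excess over genes at large therefore depended on the scaling.

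**Figure D2:**
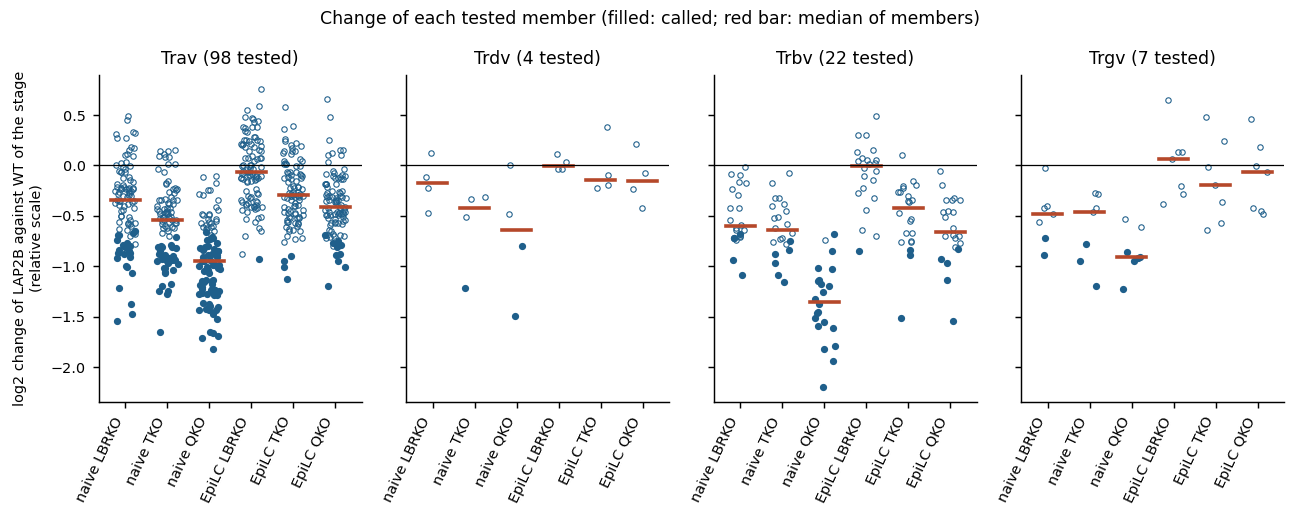
Change of LAP2B against WT of the same stage (y axis, log2, relative scale) for each tested member, by locus and by mutant and stage (x axis); filled points passed limma at an adjusted p under 0.05 and the red bar is the median. The naive QKO columns are the lowest, with Trbv at a median of -1.35 and 21 of 22 members called.

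The members with the largest falls in naive QKO were all Trbv. Trbv12-2 (chr6:41095785-41096298, plus strand) is a beta chain V segment. It had the highest Trbv density in the same naive WT libraries that enter its change, so its fall may be overstated. Its relative value was 1.49, 1.52 and 1.15 in the naive WT libraries, 1.09, 0.820 and 0.771 in LBRKO, and 0.789, 0.750 and 0.806 in TKO. In QKO it was 0.267, 0.267 and 0.147. WT was the highest group and QKO the lowest, neither overlapped another group, and LBRKO and TKO lay between and overlapped each other. The QKO change was -2.20 ± 0.277 (log2, SE; adjusted p = 5.9e-10 by limma), and QKO was also below TKO, from which it was made, by limma (-1.46, adjusted p = 1.4e-05).

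Trbv17 (chr6:41139996-41140490), another beta chain segment, was at 0.556, 0.773 and 0.346 in naive WT and at 0.0444, 0.0952 and 0.0588 in QKO. These QKO values lie under the 0.1 added before log2. The median gene held 90, 105 and 68 reads in those libraries, so they rest on few reads. Every QKO library was below every WT library, and the change was -1.94 ± 0.331 (adjusted p = 8.6e-07, limma). Trbv31 (chr6:41534627-41535386) is the beta chain segment that lies in inverted orientation downstream of the constant genes. It was at 1.26, 0.636 and 1.06 in naive WT and at 0.178, 0.210 and 0.206 in QKO, again without overlap (-1.82 ± 0.318, adjusted p = 1.7e-06, limma). Only Trbv12-2 and Trbv31 of these 3 were also called in naive TKO (-0.75 and -0.84, adjusted p = 0.022 and 0.027, limma), and each of these calls was lost in 3 of 6 omissions of a library. For Trbv12-2 the adjusted p was then 0.063 and 0.074 (without naive WT library 1 or 2) and 0.052 (TKO library 2), and for Trbv31 it was 0.13 and 0.072 (WT library 1 or 3) and 0.27 (TKO library 2).

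Trav7-1 (chr14:52892274-52892785), the alpha chain segment with the highest density, was at 0.694, 0.682 and 0.769 in naive WT, and 0.605, 0.400 and 0.478 in TKO. The QKO libraries were at 0.133, 0.114 and 0.147, and the LBRKO libraries at 0.0962, 0.230 and 0.289. LBRKO and QKO were the low groups and overlapped, and TKO lay between them and WT. Its change was -1.82 ± 0.291 in QKO (adjusted p = 2.2e-07), -1.47 in LBRKO (adjusted p = 2.6e-05) and -0.47 in TKO (adjusted p = 0.18), all by limma.

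The gamma chain segments changed by between -1.23 and -0.53 in naive QKO. Trgv1 (chr13:19524159-19524624) was at 0.458, 0.545 and 0.327 in naive WT and 0.0889, 0.171 and 0.132 in QKO, with no overlap (-1.23 ± 0.302, adjusted p = 0.00030, limma). Trgv2, Trgv3, Trgv5 and Trgv6 changed by -0.90, -0.95, -0.91 and -0.86 and were called. The call was lost for Trgv2 without QKO library 1 (adjusted p = 0.088, limma), for Trgv5 without WT library 2 (0.061) or QKO library 3 (0.080), and for Trgv6 without WT library 2 (0.065). Trgv4 (-0.61, adjusted p = 0.060) and Trgv7 (-0.53, adjusted p = 0.096) were not called by limma, although all 7 had QKO libraries wholly below WT, against 42.1% of all genes.

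Of the delta chain segments, Trdv2-2 (chr14:54198401-54199059) was at 0.653, 0.682 and 0.5 in naive WT and 0.156, 0.114 and 0.191 in QKO, which did not overlap (-1.49 ± 0.321, adjusted p = 4.6e-05, limma). Trdv1 fell by 0.80 (adjusted p = 0.022, limma), a call lost without WT library 1 or 2 (0.091 and 0.063) or QKO library 1 or 3 (0.10 and 0.065). Trdv5 changed by -0.48 (adjusted p = 0.12) and Trdv4 by 0.00 (adjusted p = 0.99), and the Trdv4 libraries of WT (0.25, 0.273 and 0.0769) and QKO (0.133, 0.152 and 0.294) overlapped. Trdv2-1 was listed at 0 in every library.

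**Figure D3:**
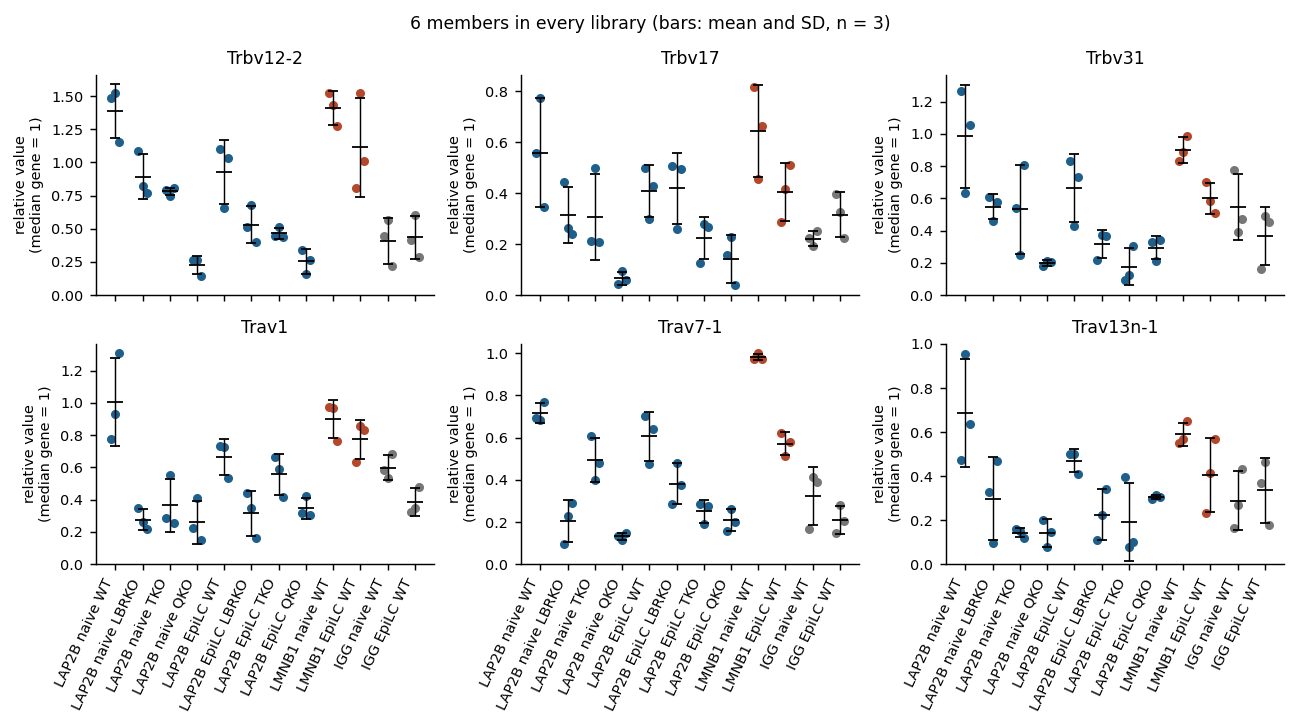
Relative value (y axis, median gene = 1) of 6 members in every library of the 12 groups (x axis); bars are the mean and SD of 3. The naive QKO libraries of Trbv12-2 lie between 0.147 and 0.267, below all of its naive WT libraries, which lie between 1.15 and 1.52.

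With loss of LBR alone or of the lamins alone fewer members were called than in QKO. Mean density relative to WT was 0.773 in naive LBRKO and 0.662 in TKO for Trav, 0.641 and 0.592 for Trbv, and 0.690 and 0.615 for Trgv, above the QKO ratios, although the TKO and QKO libraries overlapped for Trgv. For Trdv it was 0.898 and 0.593, and the TKO value (0.771 ± 0.0904, SD, n = 3) overlapped that of QKO (0.820 ± 0.208). In naive LBRKO, 30 of 131 members fell, against 27.7% of all genes, so the members were not called more often than genes at large; the median member changed by -0.38, against 0.04 over all genes. In naive TKO, 44 of 131 fell, against 27.6%, with a median of -0.54 against -0.11. By edgeR 33 of 131 fell in TKO, against 25.0% of all genes. Centred on the median gene of the chromosome 24 fell, against 25.8%. The excess of calls in TKO over genes at large therefore depended on the scaling. Libraries lay wholly below WT in 39 members in LBRKO (28.5% of all genes) and 53 in TKO (29.4%). On the spike-in scale 10 members fell in LBRKO (17.8% of all genes) and 98 in TKO (47.5%). By locus, 23 of 98 Trav, 5 of 22 Trbv, 2 of 7 Trgv and 0 of 4 Trdv members fell in LBRKO by limma (0 Trdv members also by edgeR or at an unadjusted p under 0.05), and 34, 6, 3 and 1 fell in TKO. Changes ran from -1.55 to 0.49 in LBRKO and from -1.66 to 0.15 in TKO. Without naive LBRKO library 2 or 3 the LBRKO count was 16 or 18, and without naive WT library 2 the TKO count was 28. All mutants were compared with the same 3 WT libraries.

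The LBRKO counts for Trbv depended on how its chromosome was treated. The median gene of chromosome 6 changed by 0.26 in naive LBRKO, and with each library centred on the chromosome's median gene 12 of 22 Trbv members were called lower in place of 5, against 26.5% of all genes. In naive TKO the same centring gave 2 in place of 6, against 25.8% of all genes. The part of the extra chromosome 6 in WT cells was not tested.

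Trav1 (chr14:52665385-52666333), the first alpha segment of the array, fell in all 3 naive mutants. Its relative value was 0.778, 0.932 and 1.31 in naive WT and 0.346, 0.262 and 0.217 in LBRKO, without overlap (-1.55 ± 0.312, adjusted p = 3.3e-05, limma). TKO gave 0.289, 0.550 and 0.254 (-1.28, adjusted p = 0.00057, limma). QKO gave 0.222, 0.410 and 0.147 (-1.66, adjusted p = 4.6e-06, limma). The 3 mutants overlapped with each other, and QKO against TKO gave -0.38 (adjusted p = 0.30, limma).

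Trav6-3, also an alpha segment, changed by -1.37 in naive LBRKO (adjusted p = 0.00056, limma), from 0.944, 0.523 and 0.692 to 0.394, 0.0656 and 0.265. Trav13n-1 had the largest fall in naive TKO. It went from 0.472, 0.955 and 0.635 in WT to 0.158, 0.150 and 0.119 in TKO (-1.66 ± 0.349, adjusted p = 8.3e-05, limma), with no overlap. Trav9d-2 fell by 1.25 in TKO (adjusted p = 0.00021, limma); its whole body is identical to that of Trav9n-2, so the reads of the pair cannot be told apart there.

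Between naive QKO and TKO, 23 of 131 members were lower in QKO, a smaller share than the 27.2% of all genes, and 9 of these were Trbv and 14 Trav. By edgeR the median member changed by -0.44, against 0.04 over all genes. On the spike-in scale 42 of 131 were lower, against 40.6% of all genes. Trbv12-2, Trav7-1 (-1.35) and Trav6-6 (-1.35, adjusted p = 0.00043, limma) had the largest falls. Trav6-6, an alpha segment whose body is identical to that of Trav6d-6, was at 0.417, 0.409 and 0.538 in naive WT, 0.355, 0.5 and 0.478 in TKO, and 0.0778, 0.0762 and 0.206 in QKO. TKO overlapped WT, and QKO lay below both. Without naive QKO library 1, 13 members were called.

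In EpiLCs the V segments differed less between genotypes. Mean LAP2B density in WT EpiLCs was 1.29 for Trav, 1.31 for Trbv, 1.25 for Trdv and 1.22 for Trgv, and in QKO EpiLCs 0.937, 0.703, 1.1 and 1.09. Members that fell numbered 2 of 131 in LBRKO (10.1% of all genes), 7 in TKO (9.97%) and 15 in QKO (17.8%), each below the share of genes at large. By edgeR the median member changed by -0.09, -0.44 and -0.57 in LBRKO, TKO and QKO, against -0.01, 0.005 and 0.01 over all genes. In naive cells the edgeR medians were -0.53, -0.69 and -1.24, against -0.02, -0.11 and -0.12 over all genes. The median member held 23.75 reads per library, and the median gene 56 to 114 in the EpiLC LAP2B libraries. A count of calls is not a measure of the size of change, and the part of read depth in these counts was not tested. In QKO EpiLCs 10 of these were Trav and 5 Trbv, and the spike-in scale gave 104 of 131, against 55.7% of all genes. On that scale TKO EpiLCs gave 9 of 131 (9.36% of all genes), and LBRKO EpiLCs 0 (3.47%; edgeR on recovered reads called 3, and limma on the relative scale found 9 at an unadjusted p under 0.05). Between QKO and TKO EpiLCs no member was called by limma on the relative scale (0.270% of all genes fell). There 6 had an unadjusted p under 0.05, and edgeR called 0. The spike-in scale gave 16 of 131 lower in QKO, against 28.4% of all genes.

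Trbv12-2 was at 1.1, 0.655 and 1.04 in WT EpiLCs and 0.341, 0.158 and 0.263 in QKO EpiLCs, without overlap (-1.55, adjusted p = 1.4e-05, limma). Trav7-1 changed by -1.20 (adjusted p = 0.00095) and Trbv17 by -1.13 (adjusted p = 0.0058) in QKO EpiLCs by limma; without QKO EpiLC library 3 the adjusted p of Trbv17 was 0.091. Trbv31 had the largest fall in TKO EpiLCs, from 0.833, 0.429 and 0.732 to 0.0952, 0.122 and 0.306 (-1.51, adjusted p = 0.00071, limma).

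The calls of Trav1 and Trbv31 in LBRKO EpiLCs and of Trav13n-1 and Trav7-1 in TKO EpiLCs were each lost under more than 1 omission of a single library. Trav1 fell by 0.93 in LBRKO EpiLCs (adjusted p = 0.022, limma), with 0.078 and 0.070 without WT library 1 or 2 and 0.20 without LBRKO library 3. Trbv31 fell by 0.85 (0.047), and its call was lost in 5 of 6 omissions, with 0.061 to 0.21 without WT library 1 or 3 or any LBRKO library. In TKO EpiLCs Trav13n-1 fell by 1.12 (0.018), with 0.073 without WT library 1 and 0.14 and 0.093 without TKO library 2 or 3. Trav7-1 fell by 1.01 (0.011), with 0.069 without WT library 1 and 0.067 without TKO library 2. With WT EpiLC library 1 left out, 0 members fell in LBRKO EpiLCs, 2 in the TKO and 8 in the QKO ones.

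The effect of a genotype differed between stages, by the interaction contrast in limma, in 6 members for LBRKO (10.2% of all genes differed in that direction), 2 for TKO (5.79%) and 20 for QKO (24.9%). In each of these the value relative to WT was higher in EpiLCs than in naive cells. These counts too were below the share of genes at large.

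In WT cells, LAP2B was lower in EpiLCs than in naive cells in 12 of 131 members, against 17.1% of all genes. On the spike-in scale it was lower in 2 of 131, against 1.75%. LMNB1 was lower on the relative scale in 3, against 7.09%. With IGG no member was called by limma (0.418% of all genes fell), 6 had an unadjusted p under 0.05, and edgeR called 0. The largest LAP2B falls were in Trav13d-3 (0.431, 0.818 and 0.615 to 0.367, 0.143 and 0.214; -1.1, adjusted p = 0.0048, limma), Trav13d-1 (-1.08, adjusted p = 0.027) and Trav9n-2 (-1.06, adjusted p = 0.0029). Those of the first 2 did not hold at every omission: the adjusted p was 0.051 without WT EpiLC library 2 for Trav13d-3 and 0.053, 0.079, 0.072 and 0.26 without naive WT library 1 or 2 or WT EpiLC library 2 or 3 for Trav13d-1. Without naive WT library 2, WT EpiLC library 2 or WT EpiLC library 3 the LAP2B count was 7. For LMNB1, Trav6-4 (-0.96), Trav13-4-dv7 (-0.96) and Trav9-2 (-0.90) were called. Trav6-4 lost its call in 4 of 6 omissions (naive library 1 or 3, EpiLC library 1 or 3; adjusted p of up to 0.16), Trav13-4-dv7 in 3 (naive 1, EpiLC 1 or 2; up to 0.16) and Trav9-2 in 5 (all but naive 1; up to 0.19).

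The surroundings of the 3 arrays changed in different ways in naive QKO. Around the Trav and Trdv array, genes inside it fell with the segments (17 of 20 lower, median -0.87, against 42.5% of all genes; 10 of 12 without the 8 that share a bin with a member), whereas 56 of 78 genes within 500 kb rose and 6 fell (median 0.89), against 33.1% of all genes that rose. This change of direction lay close to the array: within 100 kb of its ends 5 of 16 genes fell and 5 rose, and from 100 to 500 kb away 1 of 62 fell and 51 rose. Mean density of the flanking genes went from 1.07 in WT to 2.91 in QKO, and the flank after the last member held 33 rises and 2 falls among 40 genes.

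Around Trbv (chr6:40868163-41535386, 667 kb) the flanks fell with the segments. All 28 tested genes within 500 kb were lower (median -1.68), as were 34 of 35 other genes inside the array (median -1.79), against 42.5% of all genes. Of those 35, 3 touch a bin of a member and so share its signal, 2 of them wholly; without the 3, 31 of 32 were lower (median -1.78). Of these, Prss1, Prss2, Prss3, Try4, Try5 and Try10 are 6 of the trypsin family genes there, which encode digestive protease precursors, and all 6 were lower (median -1.95), with Prss1 at -2.25 and Prss3 at -2.02. Flank density went from 1.37 to 0.480. Around Trgv (chr13:19362194-19524624, 162 kb) 15 of 26 flanking genes (57.7%) were lower and none higher (median -0.54), and flank density was 1.42 in WT and 1.20 in QKO.

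**Figure D4:**
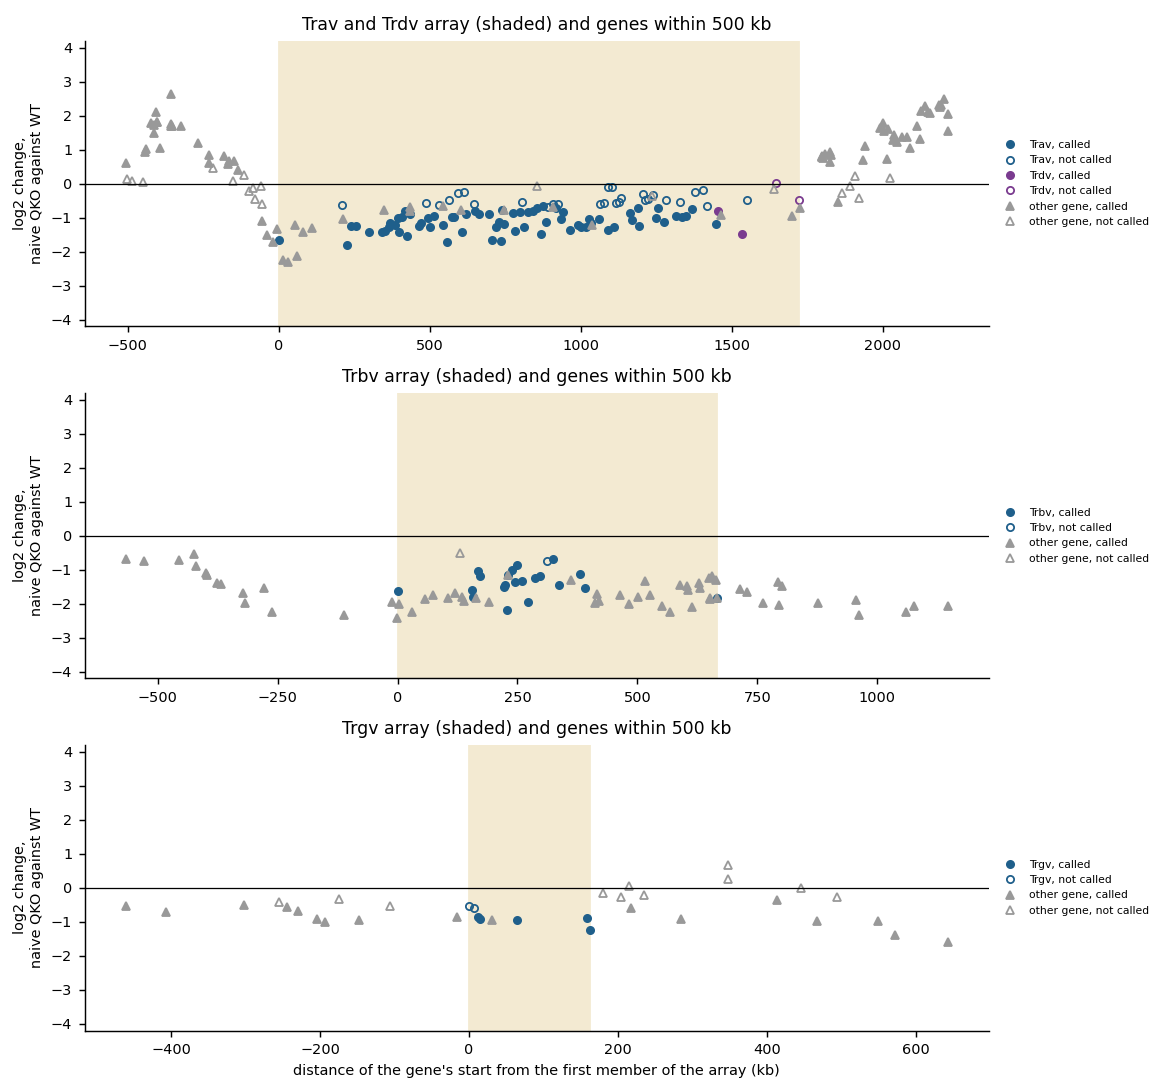
Change of LAP2B in naive QKO against WT (y axis, log2, relative scale) for members and other genes of the 3 arrays (shaded) and the 500 kb on each side, by distance from the first member in kb (x axis); filled symbols passed limma at an adjusted p under 0.05. Genes beside the Trav and Trdv array lie mostly above 0 (56 of 78 rose), while all 28 genes beside the Trbv array lie below it.

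Along the Trav and Trdv array the QKO change was largest at the Trav1 end. In the 6 windows of 300 kb the median change was -1.34, -1.08, -0.89, -0.85, -0.68 and -0.49, and 5 of 6, 20 of 24, 21 of 25, 16 of 25, 9 of 18 and 1 of 4 tested members were called, against 42.5% of all genes. The Trav array holds 2 internal repeats, marked by d (35 members) or n (28 members) after the family number in the symbol, beside 47 members with no letter. Members called lower in naive QKO were 25 of 31 with d, 21 of 25 with n and 24 of 42 with no letter, against the same 42.5%, and their naive WT densities were 1.91, 1.73 and 1.68. These sets differ in position as well as in name.

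Copies limit what can be said of single Trav members. In all, 28 Trav members form 14 pairs that are identical over their whole length, 13 of them about 311 kb apart, and 47 have a closest relative at 97% identity or more. The median closest identity was 95.5% in Trav, 60.0% in Trbv, 62.7% in Trgv and 55.3% in Trdv. The last 150 bases of 3 Trav13 copies are shown because few bases separate them. They were compared base by base with no gap. Lower case is shared with Trav13n-1 and capitals mark differences from it (9, 1 and 0). The stretches lie on the plus strand of GRCm39 at chr14:53782833-53782982, chr14:53089174-53089323 and chr14:53400218-53400367.
Trav13-1: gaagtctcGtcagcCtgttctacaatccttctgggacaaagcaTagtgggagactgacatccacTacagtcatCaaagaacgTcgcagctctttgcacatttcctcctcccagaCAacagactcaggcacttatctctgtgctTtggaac
Trav13d-1: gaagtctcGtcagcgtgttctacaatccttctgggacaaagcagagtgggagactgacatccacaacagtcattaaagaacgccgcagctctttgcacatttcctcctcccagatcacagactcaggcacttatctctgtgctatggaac
Trav13n-1: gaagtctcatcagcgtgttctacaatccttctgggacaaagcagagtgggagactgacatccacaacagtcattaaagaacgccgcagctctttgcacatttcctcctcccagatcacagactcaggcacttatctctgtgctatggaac

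Trav13-1, Trav13d-1 and Trav13n-1 had naive QKO densities of 1.52, 0.596 and 0.447 and changes of -0.56, -1.53 and -1.70. Their naive WT densities were 2.08, 1.79 and 1.77. Trav13-1 was picked after its values were seen, and a difference between these copies was not tested. Their IGG densities were in the same order, 1.95, 0.921 and 0.717, and the part of this in the LAP2B values was not tested.

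The other parts of the T cell receptor loci changed to different extents and not all in the same direction. V pseudogenes were lower in naive QKO in 19 of 26 (median -1.05), against 42.5% of all genes. Of the J segments, which join to V or D segments, 13 of 48 (27.1%) were lower, below the share of all genes, and 1 was higher (median -0.45). Of the constant genes, which encode the body of the chain, Trbc1, Trbc2 and Trgc1 to Trgc4 (-0.98, -1.56, -0.92, -1.21, -0.88 and -1.12) were lower, 6 of 8 in all. Trac, the alpha constant gene (chr14:54457978-54461663), lies past the last Trav and Trdv member and was higher (0.66, adjusted p = 0.016, limma). Trdc, the delta constant gene inside the array, was at -0.35 and not called. Of 3 D segments tested, Trbd2 fell (-1.85), and Trbd1 (-0.63) and Trdd2 (0.02) were not called.

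V segments of the B cell receptor, which recombine by the same enzymes in B cells, are the most alike list. In naive QKO 200 of 206 tested immunoglobulin V segments were lower (median -1.55), against 42.5% of all genes, with 110 of 111 in Igh (-1.66) and 87 of 90 in Igk (-1.39). Of the Igl segments, Iglv2 (-0.81) was lower, and Iglv1 (-0.46) and Iglv3 (-0.61) were not called. Their naive WT LAP2B density was 4.19 in Igh and 2.05 in Igk, against 1.77 in Trav and 1.96 in Trbv. In naive LBRKO 117 of 206 were lower, beside 30 of 131 T cell receptor segments and 27.7% of all genes, and in TKO 75 of 206 beside 44 of 131 and 27.6% of all genes.

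**Figure D5:**
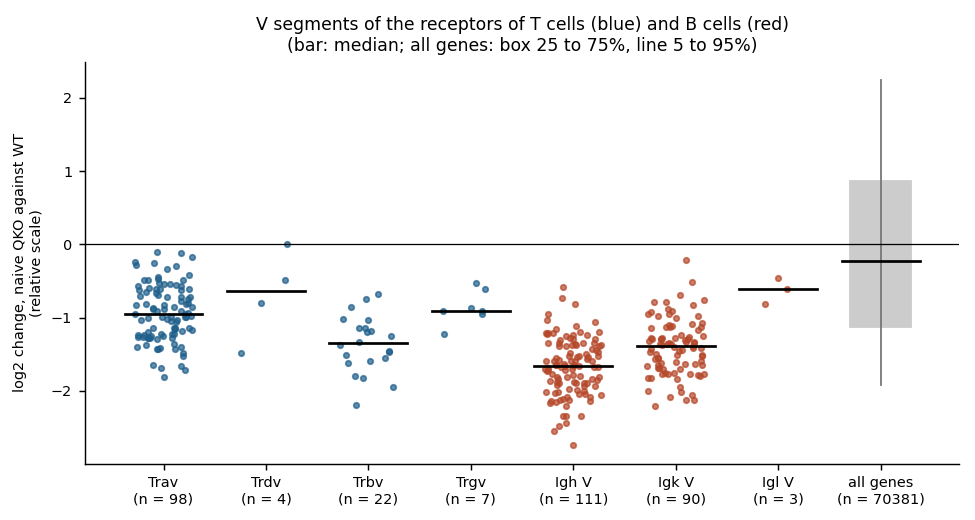
Change of LAP2B in naive QKO against WT (y axis, log2, relative scale) for tested V segments of T cell receptor loci (blue) and immunoglobulin loci (red), with the spread of all 70381 genes tested as a box (25 to 75%) and line (5 to 95%). Medians were -0.64 in Trdv, -0.95 in Trav, -1.35 in Trbv and -1.66 in Igh. The Igl segments Iglv1, Iglv3 and Iglv2 were at -0.46, -0.61 and -0.81.

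Genes that act with the T cell receptor did not move as one in naive QKO. Of 14 signalling genes 8 were higher and 4 lower, against 33.1% of all genes higher and 42.5% lower, with the adaptor gene Lat at 2.81, the kinase gene Lck at 2.44 and Ptcra, the pre-T cell receptor alpha chain, at 2.44. Lcp2, an adaptor (-1.04), and Cd28, a co-stimulatory receptor (-0.93), were among those that fell. Of the recombination genes, Rag1 (-0.91) and Rag2 (-1.23) fell, and Dntt, which adds bases at the joins, was at -0.21 and not called. Of 4 regulators of the T cell lineage, the receptor gene Notch1 (2.33) and the transcription factor gene Tcf7 (2.12) rose, and the transcription factor genes Gata3 (-0.20) and Bcl11b (-0.11) were not called. None of these 21 genes lies in an array.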

How the data were processed

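CUT&RUN DNA from 36 libraries (24 LAP2B, 6 LMNB1 and 6 IGG) was analysed; 2 H3K9me3 samples were not analysed here. The deposited gene tables hold signal: per the labels and the study's methods, the authors aligned reads with Bowtie2 2.3.5.1 to mm39 and sacCer3, kept properly paired primary alignments without duplicates with SAMtools 1.10, left out blacklisted regions, and scaled RPKM coverage by yeast spike-in reads with deepTools. Values are whole multiples of what 1 read is worth in a library (100% of low values within 0.05 of a step), so reads were recovered and used for edgeR. Primary alignments place a read that matches identical copies at one of them, so levels of single copies are uncertain.

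Values were divided by the library's median gene (relative value) or by its median gene per 1 kb bin (density). limma 3.58.1 in R 4.3.3 (lmFit, eBayes with trend, two-sided) was fitted to log2(relative value + 0.1) of all genes above the lowest 10% by mean, 70381 of 78202, with 1 model of 8 LAP2B group means and separate models for LMNB1 and IGG. Benjamini-Hochberg adjustment ran over every gene tested, and a call needs an adjusted p under 0.05. An exact permutation test of 3 against 3 libraries cannot go below 0.1 and was not used. The script was tested on simulated data. Biotypes come from the deposited gene tables and coordinates from GENCODE on GRCm39, and 78131 genes have coordinates. Named members are the highest and lowest of each locus, up to 3 with the largest called, non-overlapping fall of each contrast, and all Trgv and Trdv members; Trav13-1 was named after its values were seen. The recombination signal of 1 member and the value of 1 signalling gene are not reported here. The members and lists were chosen with earlier results of these data known.

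Replicate numbers did not pair the libraries: of 33 same-numbered pairs, 1 had deviations correlated above 0.1 (range -0.250 to 0.176). Alternatives covered scaling, pseudocount, filter, copies, edgeR 4.0.16, a replicate block and each library left out.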

Additional observations from a re-analysis of the deposited data

Results flagged for a closer look

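The effect of a genotype on LAP2B differed between EpiLCs and naive cells, by the interaction contrast in limma, in 6 members for LBRKO (10.2% of all genes differed in the same direction), 2 for TKO (5.79%) and 20 for QKO (24.9%).

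The delta segment Trdv2-2 differed by 1.60 for TKO and by 1.70 for QKO on the log2 scale; its naive values fell in both mutants, while its WT EpiLC libraries (0.133, 0.381 and 0.5) overlapped those of TKO EpiLCs (0.317, 0.533 and 0.459) and QKO EpiLCs (0.545, 0.219 and 0.404). For QKO the stage difference was 1.47 for Trav13d-3, 1.39 for Trav13d-1, 1.20 for Trav13n-1, 0.99 for Trav9d-2 and 1.22 for Trgv1. Of these, Trav13d-3 and Trdv2-2 kept the QKO call with every library left out in turn; those of the others were lost in 1 (Trgv1), 6 (Trav9d-2), 7 (Trav13d-1) and 8 (Trav13n-1) of 12 omissions, and their adjusted p rose to between 0.051 (Trgv1, without naive QKO library 1) and 0.16 (Trav13d-1, without WT EpiLC library 3). The TKO call of Trdv2-2 was lost without WT EpiLC library 1 (0.079) or TKO EpiLC library 2 (0.052).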

How the results depend on the processing

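The direction of the called members was the same under every alternative run except 1: divided by the mean gene, LMNB1 between stages gave 1 member, which was higher. The naive QKO count stayed within 1.5 times its value under each alternative over the full list. The other counts moved as follows, in the order naive LBRKO, TKO, QKO against TKO, then EpiLC LBRKO, TKO, QKO, QKO against TKO, then WT LAP2B stage, LMNB1 stage, and the stage differences of LBRKO, TKO and QKO, giving only those beyond 1.5 times. Without the d and n copies, which shortens the list, naive LBRKO gave 17, TKO 23, QKO 52 and QKO against TKO 14, EpiLC TKO 4 and QKO 8, WT LAP2B 7 and the QKO stage difference 10. On the spike-in scale these were 10, 98 and 42, then 0 (EpiLC LBRKO), 104 (QKO) and 16 (QKO against TKO), 2, 0, and 0, 1 and 12. Divided by the mean gene they were 19 and 20, WT LAP2B 6, and stage differences 2, 1 and 10. By chromosome they were TKO 24, EpiLC LBRKO 4 and QKO 9, WT LAP2B 7 and stage differences 3, 1 and 9. edgeR with DESeq2 size factors gave TKO 25, WT LAP2B 5 and stage differences 2, 0 and 9, and with TMM 1 and 10 for TKO and QKO. A pseudocount of 0.5 gave EpiLC LBRKO 4 and WT LAP2B 25, and 0.01 gave 1, 7 and a TKO stage difference of 1. Without the filter the TKO stage difference was 1 and LMNB1 0. Per bin, chosen after seeing the data, EpiLC LBRKO was 1 and the TKO and QKO stage differences 1 and 12. The ratio of naive QKO to WT was 0.384 (Trav), 0.218 (Trbv) and 0.395 (Trgv) over the mean gene per bin, and 0.431, 0.234 and 0.447 when not divided by bins. Shares of all genes called are not given beside these counts or beside those with a library left out below. The counts therefore show how the calls of members moved, and not whether members moved more than genes at large. The cause of these moves was not tested.

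With each library left out in turn, the counts ranged over 16 to 30 (naive LBRKO), 28 to 40 (TKO), 82 to 96 (QKO), 13 to 26 (QKO against TKO), 0 to 3, 2 to 8 and 8 to 15 (EpiLC LBRKO, TKO and QKO), 0 to 0 (EpiLC QKO against TKO), 7 to 13 (WT LAP2B), 0 to 5 (LMNB1), 0 to 0 (IGG), and 2 to 6, 0 to 4 and 12 to 25 (stage differences of LBRKO, TKO and QKO). Libraries that moved a small count by over 1.5 times were, for EpiLC LBRKO, WT library 1 (0), WT library 3 (1) and LBRKO library 1 (1), and for EpiLC TKO, WT library 1 (2), WT library 3 (4), TKO library 2 (3) and TKO library 3 (4). For LMNB1 they were naive library 3 (1) and EpiLC libraries 1 (0), 2 (5) and 3 (1). For the stage difference of LBRKO they were naive WT 1, naive LBRKO 3 and EpiLC LBRKO 3 (3 each) and naive LBRKO 2, EpiLC WT 3 and EpiLC LBRKO 2 (2 each). For that of TKO they were naive TKO 1 (4), EpiLC TKO 2 (0) and naive WT 2, naive TKO 3, EpiLC WT 2, EpiLC WT 3, EpiLC TKO 1 and EpiLC TKO 3 (1 each), and for that of QKO naive QKO 1 (12), EpiLC WT 3 (12) and EpiLC QKO 2 (13). With a replicate block the counts were 32, 44, 100 and 23 in naive cells, 2, 7, 14 and 0 in EpiLCs, 13, 2 and 0 for the WT stage (LAP2B, LMNB1 and IGG) and 5, 2 and 21 for the stage differences. In 9 of 33 cases a library deviated most like its own number.

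Depth limits single members: with a median of 23.75 reads per library over the 138 members not listed at 0, small changes of 1 segment were not detectable.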

Other observations

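A further 7 Trav members had signal but fell below the filter and were not tested. Their mean naive LAP2B densities in WT and QKO were 1.11 and 0.588 for Trav14d-1, 1.55 and 0.483 for Trav14d-2, 1.04 and 0.705 for Trav6n-5, 1.26 and 0.812 for Trav14n-2, 1.07 and 1.06 for Trav7n-6, 1.41 and 1.05 for Trav8-1, and 1.08 and 0.731 for Trav7-6. The remaining 6 members, Trav2, Trav3-1, Trav5-1, Trav7d-3, Trav6d-4 and Trdv2-1, were listed at 0 in all 36 libraries, as were 3244 genes in all.

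Base composition of the bins was close to that of other genes, with median GC of 45.5% in Trav, 44.0% in Trdv, 43.3% in Trbv and 44.9% in Trgv, against 44.5% over all genes. In windows of 50 bins on each side it was 41.2%, 41.3%, 39.6% and 40.6%, against 43.4%.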
